A study of Mus musculus with 6 samples.

Results

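The enzymes examined here build nucleotides, serine and one-carbon units. They were taken by gene symbol from a list of 37 enzymes, each found once among the 52249 genes of the deposited count table, and 36 of them held enough counts to be tested. Purine and pyrimidine nucleotides are assembled from ribose phosphate, amino acids, bicarbonate and one-carbon groups carried on folate. Serine, made from a glycolytic intermediate, donates those one-carbon groups, mainly inside mitochondria, and the methionine cycle draws on them for methylation. Dividing crypt cells of the intestine copy their DNA continually, and MYC, which WNT signalling induces, is known to activate many of these genes.

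Expression was measured by 3′ mRNA sequencing of mouse intestinal organoids, cultures of gut epithelium grown as small bodies. The 3 control libraries carried the genotype Apc-knockout, the loss of a tumour suppressor that restrains WNT signalling. The other 3 libraries carried the same knockout together with IGF2BP3 overexpression, IGF2BP3 being an RNA-binding protein that stabilises mRNAs, and are called OE-labelled here. By their labels all 6 libraries carried the Apc knockout, and no library without the knockout was analysed here. The age and number of mice, the way Apc was deleted, the construct and the number of clones are not given in the sources used here, so p-values measure the spread between these samples, which may be technical.

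The libraries held 2180116 to 2519917 counts, and 3 counts, used as the detection floor, lay between 1.18 and 1.41 CPM. CPM is a gene's share of the library's counts scaled to one size, with library sizes corrected by TMM, edgeR's trimmed mean of log ratios. These floors cover counting error only. Reads on Igf2bp3 numbered 1, 0 and 0 for the controls and 1, 0 and 0 for the OE-labelled libraries, so the gene gave no check of the label. Apc had 148 to 182 counts in every library. It was at 83.9, 81.6 and 75.6 CPM in control and 64, 59.4 and 62.6 CPM in OE-labelled libraries, without overlap. This fall, to 0.771 times the control level, passed the test described below (adjusted p = 0.0323, edgeR). It did not pass with an offset for GC content (adjusted p = 0.264, edgeR) or with DESeq2 (adjusted p = 0.0753). Since counts come from transcript 3′ ends and the deleted part is not given, the Apc counts check nothing either. The library names form one series for each group, so series and group cannot be told apart. Control libraries differed from each other 1.2 to 1.37 times as much, in variance, as counting alone gives, and OE-labelled libraries 4.71 to 9.04 times. Of 11 epithelial markers 10 were tested, and 6 rose and 1 fell, where 16.5% of all tested genes rose and 12.7% fell. Their summed level was 4890 to 5187 CPM in control and 6365 to 7190 CPM in OE-labelled libraries. Mean CPM rose most in Krt18 (1179 to 2229). Cldn7 fell (203 to 95.1), and Epcam, Cdh1 and Cdx2 did not pass. Fibroblast markers summed to at most 3.28 CPM in any library, with Col1a2, Col3a1, Dcn, Lum, Pdgfrb and Thy1 at 0 in all libraries, and 0 of 10 could be tested. Endothelial markers summed to at most 0.922 CPM, with Cdh5 and Tek at 0. Of 8 immune markers 3 were tested and 1, Csf1r, rose, taking the summed level from between 47.9 and 53 CPM to between 68.1 and 80.2 CPM, while Cd3e, Cd79a and Lyz2 were at 0 and Ptprc had at most 2 counts. The part of these markers in the results below was not tested.

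Of the 36 tested enzymes, 12 rose and 2 fell in OE-labelled libraries, and 22 did not pass the threshold (edgeR quasi-likelihood test, Benjamini-Hochberg adjusted p below 0.05 over all 10687 genes tested, which limits the expected share of false calls). A log2 fold change here is OE-labelled over control, so that 1 is a doubling. The 12 were Phgdh and Psat1 of serine synthesis, Shmt2 and Mthfd1l of the folate cycle, Mat2a of the methionine cycle, Prps1 of ribose phosphate activation, Adsl, Impdh1 and Impdh2 of purine synthesis, and Aprt, Nme1 and Nme2 of salvage and phosphate transfer. The 2 that fell, Gart and Atic, belong to purine synthesis. The share that rose was 33.3% of the tested enzymes, where 16.5% of all tested genes rose, and the share that fell was 5.56%, where 12.7% of all tested genes fell. The median log2 fold change of the 36 enzymes was 0.31, against 0.04 for all tested genes. The enzymes were chosen with earlier results of these data known, so these comparisons with all tested genes are description only. The changes were moderate: the rises ran from 1.33-fold to 1.88-fold, and the median size of the 14 changes was 0.59 on the log2 scale, against 0.69 for all genes past the threshold. In 13 enzymes (36.1%) every OE-labelled library lay above every control library, and in 3 (8.33%) below, where 25.3% and 20.5% of all tested genes did so. In bulk RNA, more cells of a type and more RNA per cell cannot be told apart.

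**Figure D1:**
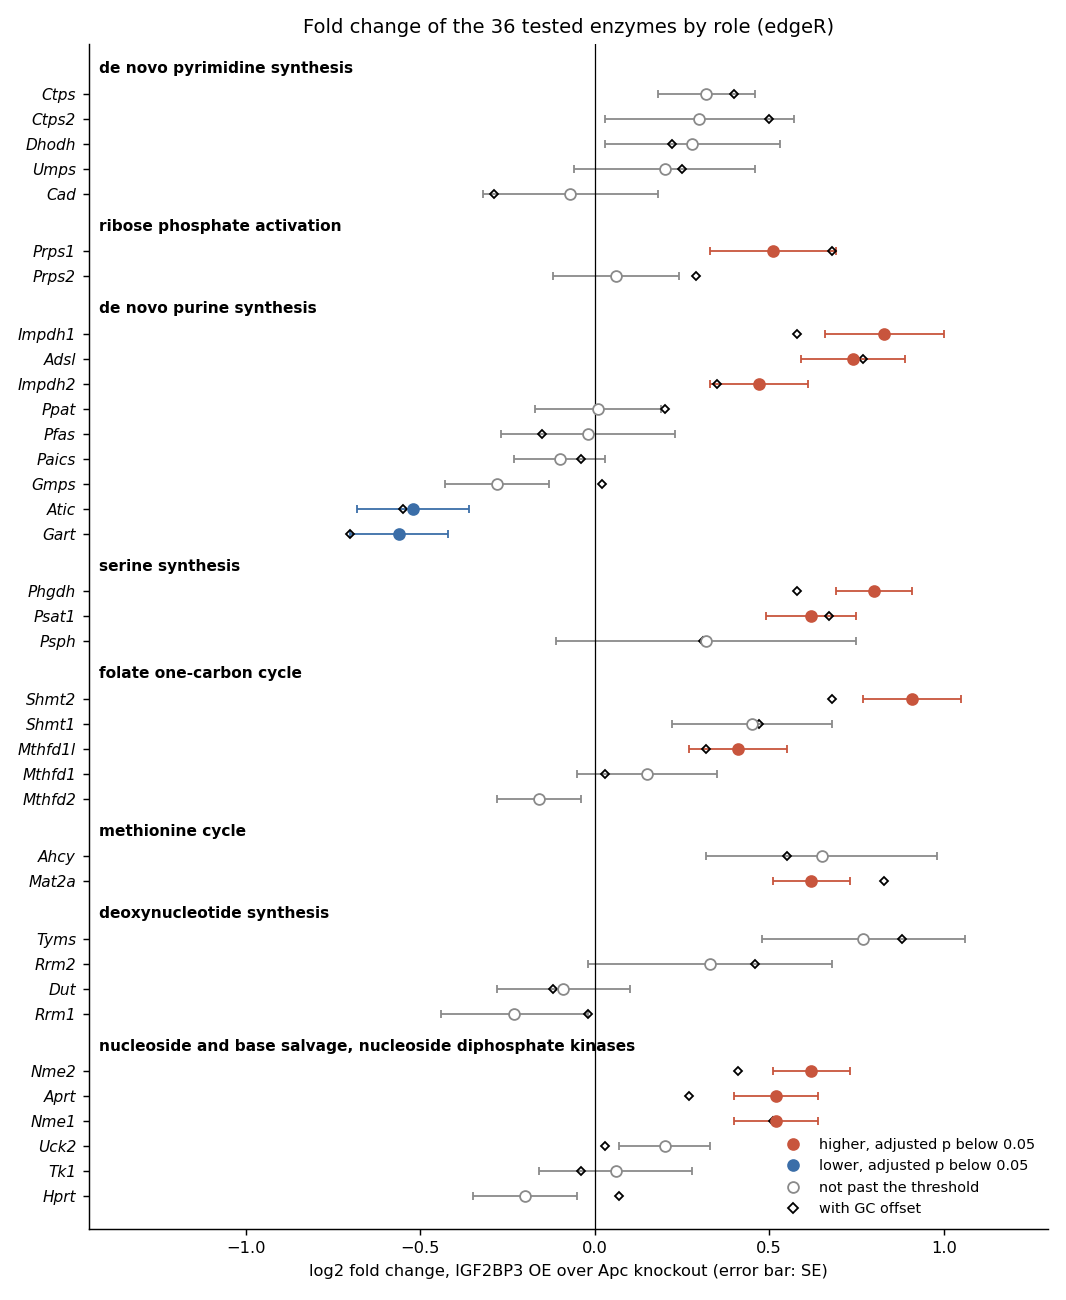
Log2 fold change (x axis) of OE-labelled over control libraries for the 36 tested enzymes, grouped by role, with SE bars; filled points passed the test (red higher, blue lower), open circles did not, and black diamonds give the fold change with an offset for GC content. Serine synthesis and salvage lie to the right of 0 with most members, while purine synthesis spreads from -0.56 (Gart) to 0.83 (Impdh1).

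Serine synthesis showed 2 of its 3 enzymes higher. Phgdh, phosphoglycerate dehydrogenase, which commits a glycolytic intermediate to serine, was counted at 81.1, 76.9 and 73.7 CPM in control and 133, 136 and 135 CPM in OE-labelled libraries. The groups were far apart, and the OE-labelled libraries lay within 3 CPM of each other. Its log2 fold change was 0.80 (SE 0.11, adjusted p = 0.000366, edgeR). Psat1, the aminotransferase of the next step, was counted at 135, 177 and 164 CPM in control and 274, 220 and 238 CPM in OE-labelled libraries, again without overlap. Its log2 fold change was 0.62 (SE 0.13, adjusted p = 0.00373, edgeR). Both passed in all 19 alternative analyses. On GRCm38, Phgdh lies at chr3:98313170-98339990 and Psat1 at chr19:15904678-15947337, both on the minus strand, and their counts come from the 3′ ends of their transcripts.

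Psph, the phosphatase that completes the route, behaved differently from library to library. It was counted at 30.9, 31 and 30.9 CPM in control and 9.32, 42.9 and 63.8 CPM in OE-labelled libraries. OE-labelled replicate 1 lay below all controls and the other two above them, and the log2 fold change of 0.32 did not pass (SE 0.43, adjusted p = 0.607, edgeR). Without OE-labelled replicate 1 it was 0.73 (adjusted p = 0.00342, edgeR), and without replicate 3 it was -0.23 (adjusted p = 0.683, edgeR). Psph shares exonic positions with Cct6a on the opposite strand, and whether the counting used strand is not given in the sources used here. Phgdh has 13 near-identical copies at its 3′ end (at least 95% identity over at least 150 bases), of which 5 held any count, 1 to 5 counts per library in all.

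In the folate cycle, 2 of 5 enzymes rose, both of them mitochondrial. Shmt2, which splits serine into glycine and a one-carbon unit in mitochondria, was counted at 59.9, 70.8 and 59.4 CPM in control and 141, 105 and 112 CPM in OE-labelled libraries. It had the highest fold change of the 36 enzymes, 0.91 on the log2 scale (SE 0.14, adjusted p = 0.000722, edgeR), with no overlap between groups. Shmt2 lies at chr10:127517123-127522444 on the minus strand and Mthfd1l at chr10:3973118-4167081 on the plus strand. Mthfd1l, which releases formate from mitochondria, was counted at 61.8, 61 and 46.1 CPM in control and 75.4, 79.8 and 68.9 CPM in OE-labelled libraries. The groups did not overlap, although control replicates 1 and 2 lay within 8 CPM of the lowest OE-labelled library. Its log2 fold change of 0.41 (SE 0.14, adjusted p = 0.047, edgeR) passed in 6 of 19 alternatives only. It did not pass with DESeq2 (adjusted p = 0.17) or when any library but OE-labelled replicate 3 was left out, with log2 fold changes of 0.28 to 0.48 (adjusted p up to 0.219, edgeR).

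Mthfd2, the mitochondrial dehydrogenase between these enzymes, did not share their change. Its mean was 192 ± 7.85 CPM over controls and 172 ± 21 CPM over OE-labelled libraries (SD, n = 3), overlapping groups with a log2 fold change of -0.16 (SE 0.12, adjusted p = 0.33, edgeR). The cytosolic enzymes did not pass either. Shmt1, the cytosolic serine hydroxymethyltransferase, was counted at 17.5, 21.1 and 25.3 CPM in control and 35.3, 20.1 and 32.6 CPM in OE-labelled libraries. The OE-labelled replicate 2 lay among the controls, and the log2 fold change was 0.45 (SE 0.23, adjusted p = 0.159, edgeR). Mthfd1, which joins cytosolic folate steps in one protein, had a log2 fold change of 0.15 (SE 0.2, adjusted p = 0.605, edgeR), with control libraries from 26.7 to 31.3 CPM and OE-labelled libraries from 23.5 to 38.9 CPM. Shmt2 shares exonic positions with Ndufa4l2, Shmt1 with Smcr8 and Mthfd1 with Gm47525, each on the opposite strand.

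**Figure D2:**
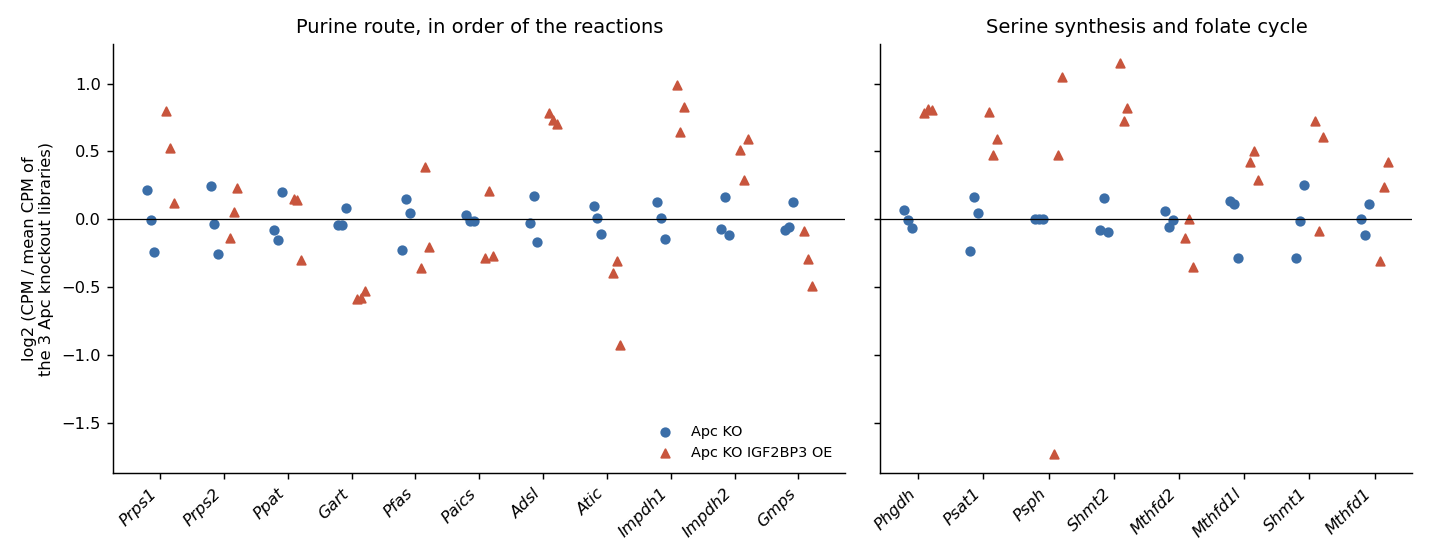
Log2 ratio of each library's CPM to the mean of the 3 control libraries (y axis), for the purine route in the order of its reactions (left) and for serine synthesis and the folate cycle (right); blue circles are control (Apc KO) and red triangles OE-labelled libraries. OE-labelled libraries of Adsl and Atic, neighbours on the purine route, lie on opposite sides of 0, and those of Psph lie both far below and far above the controls.

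The purine route did not move as a block. Of its 9 enzymes from Ppat to Gmps 3 rose, 2 fell and 4 did not pass, with a median log2 fold change of -0.02. Gart, which carries out several early ring-building steps and uses formyl-folate, fell from 50.2, 50.2 and 54.8 CPM to 34.4, 34.6 and 35.9 CPM. The log2 fold change was -0.56 (SE 0.14, adjusted p = 0.00845, edgeR), and the OE-labelled libraries lay close together below all controls. Atic, which closes the ring to inosine monophosphate with the other formyl-folate, fell from 93.6, 88.2 and 81.1 CPM to 66.4, 70.8 and 46.1 CPM. OE-labelled replicate 3 was the lowest, the groups did not overlap, and the log2 fold change was -0.52 (SE 0.16, adjusted p = 0.0265, edgeR). Gart lies at chr16:91621186-91646952 on the minus strand and Atic at chr1:71557150-71579631 on the plus strand. The fall of Gart missed the threshold without control replicate 3 (-0.52, adjusted p = 0.0516, edgeR), and that of Atic without control replicate 1, 2 or 3 (-0.47, -0.51 and -0.57, adjusted p = 0.107, 0.0882 and 0.0591, edgeR).

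Adsl, adenylosuccinate lyase, acts just before Atic and again on the branch to AMP, and it rose. It was counted at 31.3, 36.1 and 28.6 CPM in control and 55.1, 53.1 and 52 CPM in OE-labelled libraries, far apart and with little spread in the second group. The log2 fold change was 0.74 (SE 0.15, adjusted p = 0.00284, edgeR). On the branch to GMP, Impdh1 and Impdh2 encode the isoforms of inosine monophosphate dehydrogenase, the rate-limiting enzyme. Impdh1 rose from 24.4, 22.5 and 20.3 CPM to 44.6, 35 and 39.7 CPM, a log2 fold change of 0.83 (SE 0.17, adjusted p = 0.00349, edgeR). Impdh2 rose from 44.2, 52.1 and 42.9 CPM to 66, 56.6 and 69.8 CPM, a log2 fold change of 0.47 (SE 0.14, adjusted p = 0.0265, edgeR). Both isoforms were without overlap between groups, with a narrower gap for Impdh2.

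Adsl lies at chr15:80948490-80970946 on the plus strand, Impdh1 at chr6:29200434-29216364 on the minus strand and Impdh2 at chr9:108560286-108565584 on the plus strand. Adsl and Impdh1 passed in all 19 alternatives and Impdh2 in 12. Impdh2 missed the threshold with DESeq2 (0.42, adjusted p = 0.119), with the GC offset (0.35, adjusted p = 0.089, edgeR), and without control replicate 1 or 3 or OE-labelled replicate 1 or 3 (0.43, 0.41, 0.39 and 0.41, adjusted p = 0.106, 0.118, 0.0504 and 0.0505, edgeR). Impdh2 has 1 near-identical pseudogene, which held at most 4 counts, and it shares exonic positions with Ndufaf3 on the opposite strand, as Gart does with Gm15964. Gmps, which finishes GMP, was counted at 47.9, 48.8 and 55.3 CPM in control and 47.8, 41.3 and 35.9 CPM in OE-labelled libraries. The groups touched without overlapping, and the log2 fold change of -0.28 did not pass (SE 0.15, adjusted p = 0.178, edgeR). It passed only without OE-labelled replicate 1 (-0.44, adjusted p = 0.0311, edgeR) and was 0.02 with the GC offset.

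The remaining purine enzymes overlapped between groups. Paics, a bifunctional enzyme of the middle of the route, was counted at 602, 586 and 584 CPM in control and 486, 682 and 489 CPM in OE-labelled libraries. The OE-labelled replicate 2 lay above and the other two below the controls, and the log2 fold change was -0.10 (SE 0.13, adjusted p = 0.601, edgeR). Ppat, the committing amidotransferase, had a log2 fold change of 0.01 (SE 0.18, adjusted p = 0.961, edgeR) and Pfas, which adds a nitrogen from glutamine, -0.02 (SE 0.25, adjusted p = 0.964, edgeR). Paics and Ppat start head to head and share exonic positions on opposite strands. Upstream of the route, the phosphoribosyl pyrophosphate synthetase Prps1 rose from 69.1, 59.1 and 50.2 CPM to 103, 85.7 and 64.7 CPM. OE-labelled replicate 3 lay below control replicate 1, and the log2 fold change of 0.51 only just passed (SE 0.18, adjusted p = 0.0455, edgeR). It passed in 8 of 19 alternatives, not with DESeq2 (adjusted p = 0.101) and not without any one of the control libraries, OE-labelled replicate 1 or OE-labelled replicate 2 (0.29 to 0.63, adjusted p from 0.0583 to 0.195, edgeR). Its paralogue Prps2 was counted at 36, 29.6 and 25.3 CPM in control and 27.6, 31.5 and 35.5 CPM in OE-labelled libraries (log2 fold change 0.06, SE 0.18, adjusted p = 0.844, edgeR), overlapping groups.

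Promoter sequences show members of this route that share a MYC-type site and moved in opposite directions. RefSeq start sites (GRCm38.p6) were found for 35 of the 37 enzymes, not for Dhodh and Pfas, giving 42 promoter windows of 300 bases. The E-box CACGTG, the hexamer that MYC with MAX binds and that reads alike on both strands, was present in 6 of the 42 windows (14.3%), against 7.15% of 32851 windows of all genes. These windows belonged to Atic, Impdh2, Nme1, Paics and Tyms, of which Impdh2 and Nme1 rose, Atic fell, and Paics and Tyms did not pass. The ATF4-type element TGATGNAA, searched on both strands, was present in 1 of 42 windows (2.38%), that of Prps1, against 3.97% of all windows. For the enzymes past the threshold with a match, the 250 bases before the RefSeq start site are shown. They read 5′ to 3′ on the gene's strand, with the match in capitals. Impdh2 is at chr9:108560186-108560435 on the plus strand, Nme1 at chr11:93968273-93968522 on the minus strand, Atic at chr1:71556906-71557155 on the plus strand and Prps1 at chrX:140456353-140456602 on the plus strand. GENCODE M21 places these starts elsewhere: Nme1 spans chr11:93956979-93968521 and Impdh2 starts at chr9:108560286. Nearly all of the Nme1 window and part of the Impdh2 window, each with its E-box, therefore lie inside the annotated gene. The Atic window also runs a few bases past the GENCODE start of Atic, chr1:71557150. A match is a description of these letters only.
Impdh2: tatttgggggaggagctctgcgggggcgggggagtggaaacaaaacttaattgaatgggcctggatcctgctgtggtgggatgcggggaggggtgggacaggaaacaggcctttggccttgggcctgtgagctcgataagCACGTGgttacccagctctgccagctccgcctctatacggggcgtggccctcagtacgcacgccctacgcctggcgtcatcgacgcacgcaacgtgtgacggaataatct
Nme1: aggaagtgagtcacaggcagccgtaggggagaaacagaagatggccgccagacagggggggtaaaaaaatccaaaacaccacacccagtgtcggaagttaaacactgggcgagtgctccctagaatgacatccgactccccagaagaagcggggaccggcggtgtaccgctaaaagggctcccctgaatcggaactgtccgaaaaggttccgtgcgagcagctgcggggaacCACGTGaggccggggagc
Atic: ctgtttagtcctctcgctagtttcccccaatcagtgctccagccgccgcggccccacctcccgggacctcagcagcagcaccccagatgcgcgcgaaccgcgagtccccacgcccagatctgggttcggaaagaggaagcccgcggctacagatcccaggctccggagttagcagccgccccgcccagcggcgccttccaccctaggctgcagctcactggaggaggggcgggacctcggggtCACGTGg
Prps1: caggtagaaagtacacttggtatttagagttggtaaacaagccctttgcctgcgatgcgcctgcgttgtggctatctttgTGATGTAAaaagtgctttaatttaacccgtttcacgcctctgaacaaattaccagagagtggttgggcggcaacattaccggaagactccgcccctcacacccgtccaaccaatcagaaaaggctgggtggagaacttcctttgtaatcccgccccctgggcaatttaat
The E-box began 7 bases before the RefSeq start site in Atic, 18 bases in Nme1 and 110 bases in Impdh2, and the Prps1 element 170 bases before it.

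Methionine cycle enzymes had 1 of 2 members higher. Mat2a, which makes the methyl donor S-adenosylmethionine outside the liver, was counted at 225, 207 and 221 CPM in control and 374, 318 and 309 CPM in OE-labelled libraries. Every OE-labelled library exceeded every control, and the log2 fold change was 0.62 (SE 0.11, adjusted p = 0.0015, edgeR), past the threshold in all 19 alternatives. Mat2a shares exonic positions with Particl on the opposite strand. Ahcy, which clears the product of methylation, had a log2 fold change of 0.65 (SE 0.33, adjusted p = 0.156, edgeR), resting on 11 to 14 counts per control and 15 to 29 per OE-labelled library. At this depth a difference of that size was not separable from the spread.

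Among salvage enzymes and nucleoside diphosphate kinases, 3 of 6 tested members rose and 0 fell (edgeR; 0 also at an unadjusted p under 0.05 and with DESeq2). Aprt, which rebuilds AMP from adenine, was counted at 109.7, 108.8 and 112 CPM in control and 184, 141 and 148 CPM in OE-labelled libraries. The controls were tight and all lower, and the log2 fold change was 0.52 (SE 0.12, adjusted p = 0.00819, edgeR). With the GC offset it was 0.27 and no longer passed (adjusted p = 0.104, edgeR). Hprt, the corresponding enzyme for hypoxanthine and guanine, was counted at 94.9, 84.9 and 82.9 CPM in control and 59.6, 87.7 and 81.6 CPM in OE-labelled libraries. OE-labelled replicates 1 and 3 lay below all controls, the latter narrowly, and replicate 2 among them; the log2 fold change was -0.20 (SE 0.15, adjusted p = 0.337, edgeR).

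Nme1 and Nme2, neighbouring genes whose products pass phosphate from nucleoside triphosphates to nucleoside diphosphates, both rose. Nme1 was counted at 95.9, 82.6 and 92.6 CPM in control and 143, 123 and 124 CPM in OE-labelled libraries (log2 fold change 0.52, SE 0.12, adjusted p = 0.00644, edgeR). Nme2 was counted at 133, 133 and 130.4 CPM in control and 211, 217 and 180.1 CPM in OE-labelled libraries (log2 fold change 0.62, SE 0.11, adjusted p = 0.00168, edgeR). Neither gene overlapped between groups. Nme1 missed the threshold without control replicate 2 (0.46, adjusted p = 0.0511, edgeR), while Nme2 passed in every alternative. Both are uncertain as single genes, because the overlapping readthrough gene Gm20390 matches 264 and 298 of their last 300 bases almost exactly and held 288 to 293.5 counts per control and 423.5 to 557.5 counts per OE-labelled library, and counts of all 3 genes included fractions of reads. Uck2, a uridine-cytidine kinase, and Tk1, the thymidine kinase of S phase, had log2 fold changes of 0.20 (SE 0.13, adjusted p = 0.29, edgeR) and 0.06 (SE 0.22, adjusted p = 0.872, edgeR), and both overlapped between groups. Dck, deoxycytidine kinase, held only 3 to 7 counts per control and 5 to 8 per OE-labelled library and was not tested.

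**Figure D3:**
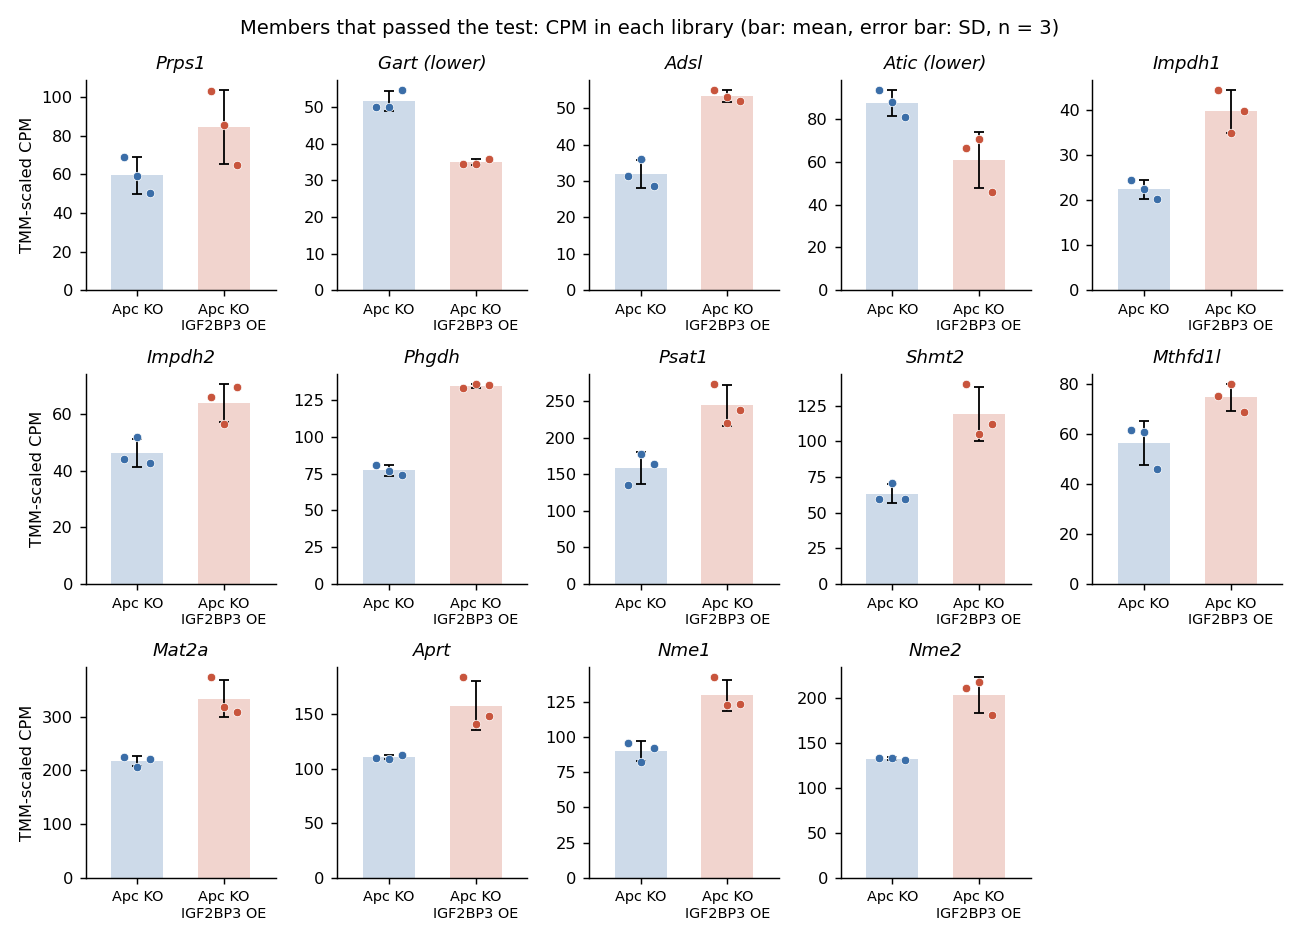
CPM (y axis, from 0) of the 14 enzymes past the threshold in each control (blue, Apc KO) and OE-labelled (red) library, with bars at the mean and SD error bars (n = 3). The libraries of the 2 groups overlap for Prps1 only, and Gart and Atic are the enzymes that are lower.

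De novo pyrimidine synthesis had no enzyme past the threshold among 5 (0 by edgeR and 0 by DESeq2; 1, Ctps, at an unadjusted p under 0.05). Cad, the multifunctional protein that starts the route, was counted at 20.7, 17.4 and 13.4 CPM in control and 11.8, 16.5 and 20.7 CPM in OE-labelled libraries, overlapping groups with a log2 fold change of -0.07 (SE 0.25, adjusted p = 0.854, edgeR). Dhodh, the mitochondrial dehydrogenase, had a log2 fold change of 0.28 (SE 0.25, adjusted p = 0.431, edgeR) and Umps, which yields UMP, 0.20 (SE 0.26, adjusted p = 0.59, edgeR). The CTP synthetases Ctps and Ctps2 stood at 0.32 (SE 0.14, adjusted p = 0.0939, edgeR) and 0.30 (SE 0.27, adjusted p = 0.419, edgeR). Ctps was counted at 61.3, 57.7 and 46.5 CPM in control and 70.9, 67.6 and 68.1 CPM in OE-labelled libraries. Its groups did not overlap, and it passed with the GC offset (0.40, adjusted p = 0.0494, edgeR). The low counts of Cad, Dhodh and Umps, 16 to 52 per library, limit what could be seen.

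Enzymes that supply deoxynucleotides for DNA synthesis did not pass either, with 0 of 4 by edgeR and 0 by DESeq2, and 1, Tyms, at an unadjusted p under 0.05. Tyms, thymidylate synthase, came closest. It was counted at 8.3, 8.91 and 5.53 CPM in control and 9.72, 16.5 and 12.7 CPM in OE-labelled libraries, all above the controls, with OE-labelled replicate 1 within 1 CPM of control replicate 2. The log2 fold change was 0.77 (SE 0.29, adjusted p = 0.0607, edgeR), and it passed in 5 of 19 alternatives, among them the GC offset (0.88, adjusted p = 0.0404, edgeR) and the fit without OE-labelled replicate 1 (0.89, adjusted p = 0.0224, edgeR). The ribonucleotide reductase subunits overlapped between groups. The large subunit Rrm1 had a log2 fold change of -0.23 (SE 0.21, adjusted p = 0.432, edgeR) and the small subunit Rrm2 0.33 (SE 0.35, adjusted p = 0.511, on 11 to 27 counts, edgeR). Dut, which removes dUTP, had -0.09 (SE 0.19, adjusted p = 0.763, edgeR).

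Within a library, the ratio of 2 genes does not depend on library scaling, and 7 pairs were compared: 6 of related enzymes and Rrm1 with Rrm2, the subunits of one enzyme. For Impdh1 over Impdh2 the log2 ratio was -0.86, -1.21 and -1.08 in control and -0.57, -0.69 and -0.81 in OE-labelled libraries, without overlap. For Shmt1 over Shmt2 the log2 ratios were -1.77, -1.75 and -1.23 in control and -2.00, -2.39 and -1.78 in OE-labelled libraries, separated by the last digit only. For both pairs the exact two-sided permutation p was 0.1, the smallest that 3 against 3 libraries can give, and 0.35 after adjustment over the 7 pairs, so neither difference could pass. Both pairs differ in GC content, 58.9% for Impdh1 and 52.4% for Impdh2, and 49.2% for Shmt1 and 57.4% for Shmt2. With the GC offset the gap between the fitted log2 fold changes went from 0.36 to 0.23 for Impdh1 and Impdh2, and from -0.46 to -0.21 for Shmt1 and Shmt2. Prps1 stood above Prps2 by 0.98 ± 0.03 log2 units among controls and 1.41 ± 0.52 among OE-labelled libraries (SD, n = 3; exact permutation p = 0.4, adjusted 0.56). The mean ratio of Ctps to Ctps2 was 2.01 in both groups (SD 0.29 and 0.28), and that of Nme1 to Nme2 was -0.55 ± 0.12 and -0.64 ± 0.16 (SD, n = 3). Rrm1 to Rrm2 and Mthfd1 to Mthfd1l differed by -0.51 and -0.30, with overlap between the groups.

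**Figure D4:**
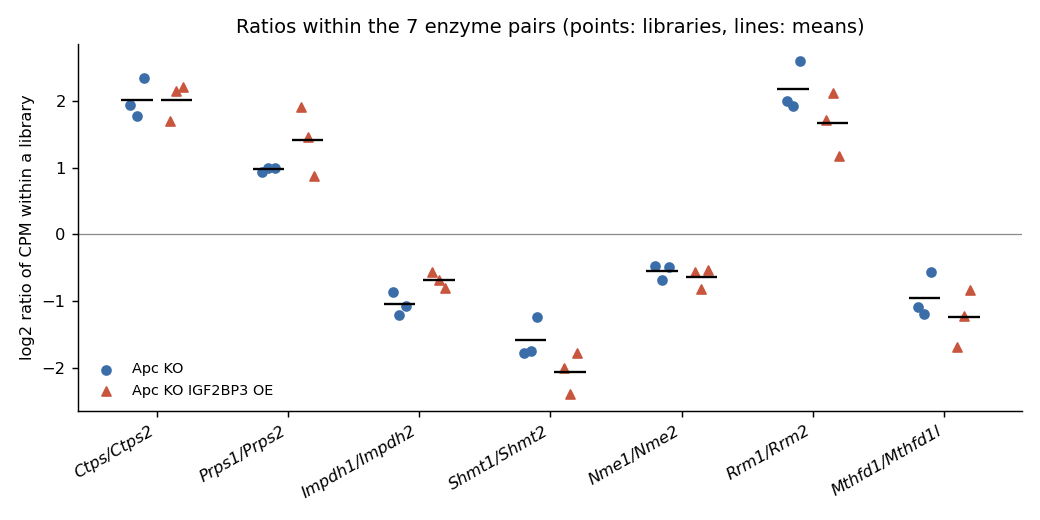
Log2 ratio of CPM within each library (y axis) for 7 pairs of related enzymes or subunits, with control (Apc KO) libraries as blue circles, OE-labelled libraries as red triangles and lines at the group means. Control and OE-labelled libraries are apart for Impdh1/Impdh2 and, narrowly, Shmt1/Shmt2, and overlap for the other 5 pairs.

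Fold changes in these libraries also varied with base composition. Across 10268 tested protein-coding genes, which share the 6 libraries and are not independent, log2 fold change had a Spearman rho of 0.37 with the GC content of the longest transcript. The median GC content was 52% for the 12 enzymes that rose, 51.6% for the 2 that fell, 48.8% for the 22 others and 49.7% for all tested protein-coding genes. With a GC offset for each library, 11 enzymes rose and 2 fell, where 14.1% of all genes rose and 9.99% fell. Of these, 9 were among the 12 and both falls were the same. Aprt, Impdh2 and Mthfd1l no longer passed and Ctps and Tyms did. Shmt2 changed from 0.91 to 0.68, Phgdh from 0.80 to 0.58 and Impdh1 from 0.83 to 0.58 (adjusted p = 0.00344, 0.0032 and 0.0213, edgeR), while the GC-poor Mat2a changed from 0.62 to 0.83 (adjusted p = 0.000505, edgeR). With DESeq2, 9 enzymes rose and 2 fell, all among the same 14, where 9.91% of all genes rose and 9.7% fell.

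**Figure D5:**
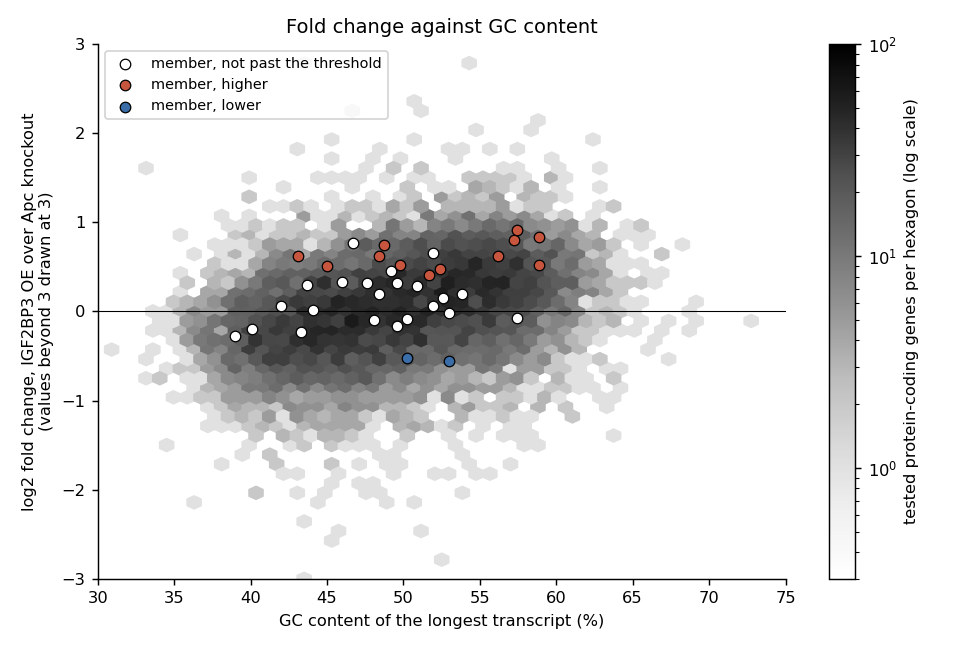
Log2 fold change (y axis) against GC content of the longest transcript in percent (x axis), with grey hexagons for the number of tested protein-coding genes and circles for the enzymes (red higher, blue lower, white not past the threshold). The grey cloud tilts upward with GC content, and enzymes that rose are found both at low (Mat2a, 43.1%) and at high GC content (Impdh1, 58.9%).

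Genes beside these routes were read from lists written from general knowledge. In the list of amino acid supply, 5 of 15 tested genes rose (33.3%, against 16.5% of all tested genes). In the same list 1 fell (6.67%, against 12.7%). Slc3a2, the heavy chain of amino acid exchangers, rose from 538 ± 40.7 to 885 ± 78.2 CPM (SD, n = 3; log2 fold change 0.72, SE 0.10, adjusted p = 0.000516, edgeR). Asns, asparagine synthetase, rose from 112 ± 7.7 to 179 ± 9.95 CPM (SD, n = 3; log2 fold change 0.68, SE 0.11, adjusted p = 0.000927, edgeR). Atf4, the transcription factor known to induce Phgdh, Psat1, Shmt2, Mthfd2 and Asns, did not pass at 684 ± 32.5 and 642 ± 54.1 CPM (SD, n = 3; log2 fold change -0.09, SE 0.10, adjusted p = 0.516, edgeR). With the GC offset its log2 fold change was -0.29 (adjusted p = 0.0467, edgeR). These counts measure Atf4 mRNA only, and whether ATF4 had a part in the values of these genes was not tested.

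Of the other nucleotide kinases, synthases and salvage enzymes, 5 of 23 tested rose (21.7%) and 2 fell (8.7%), near the 16.5% and 12.7% of all tested genes. Ak6, an adenylate kinase, rose by 0.89 (SE 0.13, adjusted p = 0.000478, edgeR) and Prpsap1, a regulatory partner of the Prps synthetases, by 0.77 (SE 0.14, adjusted p = 0.0017, edgeR), both on the log2 scale. Adss, which turns inosine monophosphate toward AMP just before Adsl acts, fell from 217, 196 and 224 CPM to 128, 123 and 151 CPM. This gave a log2 fold change of -0.66 (SE 0.12, adjusted p = 0.00146, edgeR) without overlap between groups, so the consecutive enzymes of the AMP branch moved in opposite directions. Among nucleotide breakdown genes 3 of 14 rose (21.4%) and 1 fell (7.14%), also near the shares of all tested genes. Cda, cytidine deaminase, had a log2 fold change of 0.99 (SE 0.14, adjusted p = 0.000394, edgeR), Pnp, purine nucleoside phosphorylase, 0.93 (SE 0.21, adjusted p = 0.00554, edgeR) and the nucleotidase Nt5c2 -0.83 (SE 0.19, adjusted p = 0.00701, edgeR).

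Folate handling and glycine cleavage genes had 0 of 15 higher and 1 lower (6.67%) by edgeR. Over all tested genes the shares were 16.5% higher and 12.7% lower. The counts were 1 and 2 at an unadjusted p under 0.05, and 0 and 0 with DESeq2. Aldh1l2, which oxidises mitochondrial formyl-folate, had a log2 fold change of -0.45 (SE 0.15, adjusted p = 0.0353, edgeR; DESeq2 adjusted p = 0.0717). With the GC offset it no longer passed (-0.37, adjusted p = 0.0755, edgeR), and Ggh, which trims folate polyglutamates, did (0.67, adjusted p = 0.0446, edgeR). In the wider methionine list 0 of 9 rose and 2 (22.2%) fell by edgeR, against the same 16.5% and 12.7% of all tested genes. At an unadjusted p under 0.05, 1 was higher and 3 were lower, and with DESeq2 0 and 2. Mtr, methionine synthase, was among the 2 that fell by edgeR, with -0.85 (SE 0.23, adjusted p = 0.0154, edgeR). With the GC offset 1 rose, Amd1, which makes the aminopropyl donor of polyamines (0.59, adjusted p = 0.0177, edgeR), and the fall of Ahcyl1 was lost (-0.26, adjusted p = 0.0953, edgeR). Ggh, Amd1 and, below, Cdk1 are named after their values were seen. Replication and proliferation genes had 3 of 22 higher (13.6%, against 16.5% of all tested genes) and 1 lower (4.55%, against 12.7%), with a median log2 fold change of 0.04. On the log2 scale the topoisomerase Top2a fell by 0.61 (SE 0.16, adjusted p = 0.0126, edgeR), E2f1 rose by 1.15 (SE 0.33, adjusted p = 0.0209, edgeR) and Mcm5 by 0.90 (SE 0.29, adjusted p = 0.0343, edgeR). With the GC offset none of these passed: Top2a stood at -0.40, E2f1 at 0.91 and Mcm5 at 0.80 (adjusted p = 0.102, 0.0585 and 0.0617, edgeR). With DESeq2, Top2a and E2f1 passed (adjusted p = 0.0103 and 0.0466) and Mcm5 did not (adjusted p = 0.166). The remaining rise, of Cdk1, was 0.45 (SE 0.15, adjusted p = 0.0421, edgeR). Cdk1 passed with the GC offset (0.52, adjusted p = 0.0256, edgeR) and not with DESeq2 (adjusted p = 0.195). Pcna and Mki67 did not pass, with log2 fold changes of 0.38 (SE 0.20, adjusted p = 0.184, edgeR) and -0.15 (SE 0.27, adjusted p = 0.724, edgeR). Myc itself was counted at 21.2, 31.4 and 24.9 CPM in control and 3.24, 13.8 and 19 CPM in OE-labelled libraries. These groups did not overlap, and the log2 fold change of -1.11 passed by edgeR (SE 0.39, adjusted p = 0.0472, edgeR). With the GC offset it was -1.25 and passed (adjusted p = 0.0359, edgeR), and with DESeq2 it did not pass (adjusted p = 0.21). OE-labelled replicate 1, the library in which Psph was lowest, was also the lowest in Myc, and whether these values are related was not tested.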

How the data were processed

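Total RNA of 6 libraries (3 control, 3 OE-labelled) was sequenced with a QuantSeq 3′ forward kit, per the labels' protocols, which reads transcript ends, so longer transcripts do not gain counts. The submitters' processing notes name STAR, HTSeq and the builds mm10 and GRCm38. The values deposited by the authors are estimated counts without normalization; 3.09% of those above 0 were fractional and were rounded, where the planned test had assumed whole counts. How strand, multi-mapping reads and molecular identifiers were treated is not given in the sources used here.

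Groups came from the sample titles, and all value columns were used. The whole table was fitted with edgeR 4.0.16 in R 4.3.3 (filterByExpr, TMM, glmQLFit and glmQLFTest without covariates), adjusted by Benjamini-Hochberg over 10687 genes. SE is log2 fold change over the root of the F statistic. The script was tested on simulated counts. Positions, GC content and overlaps came from GENCODE M21 (99.5% of identifiers found), and near-identical copies from blastn 2.17.0 of the last 300 bases of each transcript. Enzymes past the threshold and their paralogues are given library by library, and up to 3 genes of each related list by smallest p. The enzymes and lists were chosen with earlier results of these data known. Alternatives were other scalings, filters and tests (DESeq2 1.42.0, limma 3.58.1), equal depth, mitochondrial genes removed, a block for replicate number, a GC offset (loess, span 0.5), unrounded counts, each library left out, and, added after the data were seen, protein-coding genes only. Results for some genes of the related lists are not reported here.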

Additional observations from a re-analysis of the deposited data

How the results depend on the processing

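Of 266 values of the 14 enzymes past the threshold under 19 alternatives, 228 kept direction and call and 38 no longer passed; no direction changed among them. Adsl, Impdh1, Phgdh, Psat1, Shmt2, Mat2a and Nme2 passed in all 19. The count of enzymes that rose ran from 9 to 13, and that of enzymes that fell was 2 except at adjusted p below 0.01 (1) and when single libraries were left out (0 to 3, with 0 without control replicate 3). The latter fits gave 9 to 11 rises, medians of 0.22 to 0.34 (main value 0.31) and 1748 to 3532 genes in all, against 3118; the lowest counts of genes were those without a control library. At adjusted p below 0.01, 1578 genes passed. The median was 0.25 with the stricter count filter, without mitochondrial genes and with protein-coding genes only. It was 0.26 with DESeq2 size factors, and 0.27 with the DESeq2 test and without a count filter.

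The titles' replicate numbers do not say that libraries share a culture, and deviations of equally numbered libraries correlated at 0.1, 0.02 and 0.07. With the replicate block 12 enzymes rose and 2 fell, the same 14, and 3112 genes passed. With the block and the GC offset 11 rose and 2 fell.

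Enzymes not past the threshold changed sign in 34 of 416 values. Ppat became -0.03 with DESeq2 size factors, the DESeq2 test and the stricter filter, -0.02 without a filter, -0.04 without mitochondrial genes and -0.05 with protein-coding genes only. Tk1 became -0.05 at equal depth and with block and GC offset, -0.04 with the GC offset, -0.0006 without mitochondrial genes and -0.01 with protein-coding genes only. Gmps became 0.02 and Hprt 0.07 with the GC offset (0.01 and 0.06 with the block as well), Pfas 0.03 with library totals, Psph -0.07 with limma-voom and Prps2 -0.01 with protein-coding genes only. Leaving out single libraries gave -0.27 to 0.08 for Cad, -0.03 to 0.49 for Umps, -0.06 to 0.20 for Prps2, -0.11 to 0.15 for Ppat, -0.31 to 0.07 for Pfas, -0.23 to 0.73 for Psph, -0.003 to 0.27 for Mthfd1 and -0.10 to 0.17 for Tk1. The cause of these changes was not tested. Counts limit the precision of Dck (3 to 8 per library), Rrm2 (11 to 27), Ahcy (11 to 29), Dhodh (16 to 36) and Tyms (12 to 42).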
